A study of Mus musculus with 5 samples.

Results

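The 10 zinc finger genes Zfp110, Zfp780b, Zfp850, Zfp469, Zscan20, Zfp2, Zfp810, Zfp951, Zfp942 and Zfp949 lie outside the large zinc finger clusters of mouse chromosomes 2, 4, 12 and 13. They were chosen by their read counts in these 4 libraries, selected on higher H3K9me3 in sgPrdm12 than in sgNTC cells, so their difference between the groups is described here and is not tested. Of 8915 protein-coding or lncRNA genes with at least 1 H3K9me3 region within 5 kb of their span, these are 10, and they hold 28 of the 46409 regions. Each of the 10 passed the filter on low counts. The mark was profiled by CUT&Tag, in which an antibody leads a transposase to the marked chromatin. The cells were splenic CD8+ T cells of mice that carry both the OT-I T cell receptor transgene and Cas9. All libraries came from cells electroporated with 300 pmol of guide and 300 pmol of added Cas9 protein. The 2 control libraries (sgNTC) received a non-targeting guide and are labelled Prdm12-wt, and the 2 sgPrdm12 libraries received a guide against Prdm12 and are labelled Prdm12-ko. Recovery lasted 72 hours. The sources used here do not give the age of the mice, the number of animals or the share of edited alleles. A p-value below therefore covers the spread among these 4 libraries and nothing wider, and that spread may be technical.

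Zinc finger proteins of the C2H2 kind read DNA with arrays of fingers, each held by a zinc ion between 2 cysteines and 2 histidines. Many of those in mammals carry a KRAB domain, which recruits TRIM28 and through it the H3K9 methyltransferase SETDB1, so that the protein silences its targets, often transposable elements. The zinc finger genes are known to bear H3K9me3 themselves, mainly over the 3′ exons that encode the fingers, while their promoters stay free of it. Prdm12 belongs to another zinc finger family, marked by a PR domain, and is known from the development of pain-sensing neurons.

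Library totals over all regions ran from 843673 to 1060646 counts in sgNTC and from 1396201 to 2353807 in sgPrdm12, with median counts per region of 7 and 9 against 32 and 17. Values below are CPM (counts per 1000000) on the TMM scale, which sets the bulk of genes level, so a change is relative to the typical gene. The median log2 fold change of all genes was -0.03 on this scale, 0.54 when scaled to total counts and 0.98 under the authors' constants. Prdm12 itself had 64 and 51 counts in the sgNTC libraries against 303 and 197 counts, a log2 fold change of 0.58 (SE 0.24), short of the edgeR threshold with adjusted p = 0.216. These counts carry no information on the edit itself. Of 16 marker genes of T cells and other blood cells 3 had a region and 0 of the 5 CD8 T cell markers did, so a mark of silent chromatin gives no check of the cell type here.

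Promoter windows of 300 bases, from 250 before to 50 after the start, matched 9 of the 10 genes in the RefSeq table for GRCm38.p6. Of these, 0 overlapped a region, and of all 32851 windows only 745 (2.27%) did, so a count of 0 among so few windows does not set these genes apart. The nearest region lay between 4.31 kb from the start of Zfp780b and 37.1 kb from that of Zfp942. The windows held from 6 to 20 CG dinucleotides with a median of 17, against 7 over all windows. A few of them are shown 5′ to 3′ with CG in capitals, a motif that reads the same on both strands and occurs at least once in 94.6% of all windows. Zfp780b (chr7:27979108-27979407, minus strand) and Zfp850 (chr7:28014066-28014365, minus strand) are shown because these neighbours share an H3K9me3 region that is in neither promoter. Zfp949 (chr9:88547770-88548069, plus strand) is shown as the window with the fewest CG.
Zfp780b: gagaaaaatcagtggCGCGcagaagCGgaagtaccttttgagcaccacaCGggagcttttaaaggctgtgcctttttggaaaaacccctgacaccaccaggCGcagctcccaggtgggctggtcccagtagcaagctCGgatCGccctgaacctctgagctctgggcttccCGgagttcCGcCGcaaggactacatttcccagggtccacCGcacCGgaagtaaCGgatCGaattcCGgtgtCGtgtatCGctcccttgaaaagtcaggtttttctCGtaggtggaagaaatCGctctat
Zfp850: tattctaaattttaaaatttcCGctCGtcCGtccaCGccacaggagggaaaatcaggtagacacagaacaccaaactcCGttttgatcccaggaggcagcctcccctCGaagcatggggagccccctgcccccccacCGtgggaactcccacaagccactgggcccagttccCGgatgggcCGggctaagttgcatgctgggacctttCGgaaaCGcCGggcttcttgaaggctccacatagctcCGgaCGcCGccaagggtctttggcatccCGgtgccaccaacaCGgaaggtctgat
Zfp949: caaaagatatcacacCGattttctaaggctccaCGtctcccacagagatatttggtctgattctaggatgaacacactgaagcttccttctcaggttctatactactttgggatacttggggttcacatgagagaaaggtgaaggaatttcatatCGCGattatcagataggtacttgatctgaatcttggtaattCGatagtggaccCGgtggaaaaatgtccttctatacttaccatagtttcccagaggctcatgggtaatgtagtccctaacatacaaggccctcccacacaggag
The window of Zfp780b holds 19 CG, that of Zfp850 holds 17 and that of Zfp949 holds 6. As many CG as in these occur in 28.1%, 31.4% and 56.4% of all windows.

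Most regions lay towards the far end in the 9 genes whose strand was known, which gave 24 pairs of a gene and a region. Of these pairs, 14 had their midpoint in the final 20% of the span and 3 past its end, together 70.8%. Another 5 were in the middle of the span, 1 in the initial 20% and 1 ahead of the start. Of the 9 genes, 8 had a region in the final 20% or past the end, and Zfp780b is the exception. The strand of Zfp469 was not known, so its 5 regions are not counted here. On either strand they lie in the middle of its span, except the one at 122231091. Among the other zinc finger genes outside clusters, 64 of 197 pairs (32.5%) lay in the final 20% or past the end, and among other protein-coding genes 2755 of 11328 (24.3%). With spans limited to those of the 9 genes, from 15.8 to 57.9 kb, the shares were 44.3% of 79 and 28.3% of 1912 pairs. The 24 pairs come from only 9 genes, and the region shared by Zfp780b and Zfp850 counts for both. The genes were selected on the counts in these regions, and whether that selection bears on their share was not tested. The gene table gives spans only, so whether a region is exonic or intronic was not determined. The regions were 188 to 988 bp wide with a median of 348 bp, against 282 bp over all regions.

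**Figure D1:**
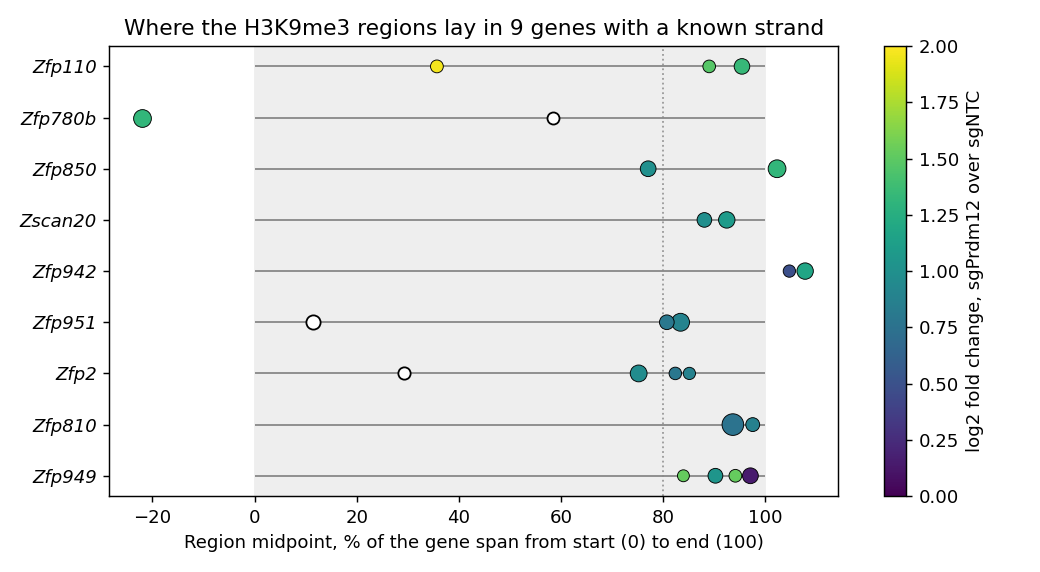
Midpoint of each H3K9me3 region along the span of 9 zinc finger genes with a known strand, in % of the span from its start (0) to its end (100); points are scaled by region width and coloured by log2 fold change, sgPrdm12 over sgNTC, and open points did not pass the filter on low counts. Of 24 points, 17 lie to the right of the dotted line at 80% or past the end.

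All 10 genes had more H3K9me3 in both sgPrdm12 libraries than in both sgNTC libraries. In such bulk samples, more cells with the mark and more mark per cell cannot be told apart. The same was true of 22.2% of all genes tested, and the selection of the 10 fixes this count, so nothing is read from it. Both sgPrdm12 libraries were below both sgNTC libraries in 0 of the 10 and in 19.6% of all genes. Their log2 fold changes ran from 0.79 to 1.51 with a median of 0.97, that is, 1.73 to 2.85-fold. Of the 10, 3 were called higher in the fit over all genes (Zfp110, Zfp850 and Zfp469), where 1.19% of all genes were, and 0 were called lower, where 1.72% were. Here again the selection used this contrast. The number called higher was 1 with DESeq2's Wald test, where 0.154% of all genes were. It was 10 when scaled to total counts or by the authors' constants, where 15.1% and 44.5% of all genes were called higher. It fell without sgPrdm12 replicate 2 or either sgNTC replicate, as did the calls over all genes. With 1 library left out, the median log2 fold change of the 10 ran from 0.87 to 1.13. Per kb of region, levels ran from 21.0 to 37.6 CPM per kb in sgNTC and from 40.1 to 70.4 CPM per kb in sgPrdm12.

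**Figure D2:**
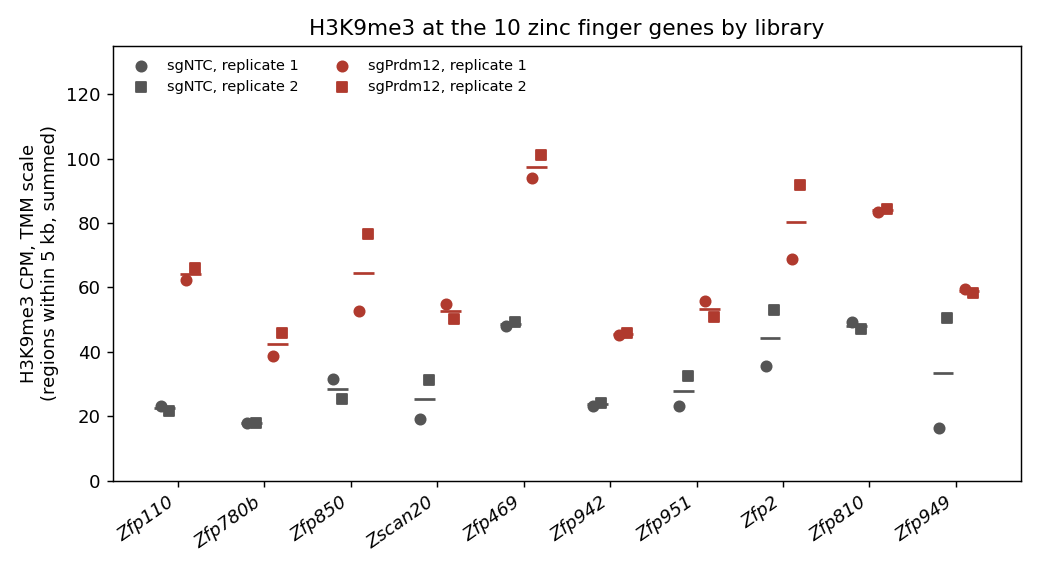
H3K9me3 in CPM on the TMM scale, summed over the regions within 5 kb of each gene, by library; horizontal bars are group means of 2 libraries. In each gene both sgPrdm12 libraries lie above both sgNTC libraries, with the smallest gap at Zfp949, where sgNTC replicate 2 reached 50.6 CPM and sgPrdm12 replicate 2 58.2 CPM.

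Zfp110 encodes a zinc finger protein known as NRIF, which binds the neurotrophin receptor p75. It spans chromosome 7 from 12834761 to 12850586. Its 3 regions summed to 17 and 18 counts in sgNTC and to 185 and 108 in sgPrdm12. This was 22.5 ± 1.12 CPM against 64.2 ± 2.70 CPM (SD, n = 2), a log2 fold change of 1.51 (SE 0.33). The groups were far apart, and the replicates of each lay close together. The widest region, at 12849652 to 12850088, sat at 95.5% of the span and held 10 and 10 counts against 99 and 52. The region at 35.7% of the span, at 12840292 to 12840535, held 4 and 2 against 28 and 36.

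Zfp780b and Zfp850 are neighbours on the minus strand of chromosome 7, at 27959135 to 27979336 and 27984471 to 28014210. The region between them, at 27983465 to 27984079, counts for both genes. It lies 392 bp past the end of Zfp850 and 4129 bp ahead of Zfp780b, and the pseudogene Vmn1r-ps87 is also within 5 kb of it. It held 11 and 11 sgNTC counts and 97 and 63 sgPrdm12 counts, a log2 fold change of 1.32 (SE 0.44). Most reads of Zfp780b came from this shared region. Its sum was 13 and 15 against 115 and 75 counts, or 17.9 ± 0.19 against 42.3 ± 5.08 CPM (SD, n = 2), with a log2 fold change of 1.23 (SE 0.39). The region within Zfp780b held 2 and 4 against 18 and 12 counts and was too sparse to be fitted. Zfp850 has a region of its own at 27991058 to 27991503, 77.1% along the span, with 12 and 10 against 59 and 62 counts. Zfp850 as a whole stood at 28.4 ± 4.37 CPM in sgNTC and 64.6 ± 16.97 CPM in sgPrdm12 (SD, n = 2), a log2 fold change of 1.17 (SE 0.32). Its sgPrdm12 libraries differed more than those of Zfp780b.

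Zfp469 is a very large zinc finger gene whose human counterpart is mutated in brittle cornea syndrome. Its span, 229528 bp on chromosome 8 from 122043123 to 122272650, is the longest of the 10 and holds 5 regions. Their sum was 35 and 41 counts in sgNTC, with 279 and 165 in sgPrdm12, or 48.6 ± 1.05 against 97.5 ± 4.99 CPM (SD, n = 2). Zfp469 thus had a log2 fold change of 1.00 (SE 0.26). The difference was uneven along the gene. A group of 3 regions between 122123558 and 122126155 had log2 fold changes of 0.92, 2.08 and 1.05. The middle one of these, at 122124914 to 122125433, held 5 and 9 counts against 100 and 70, and its groups did not come near each other. The other 2 regions of Zfp469, at 122181114 and 122231091, stood at -0.15 and -0.24 with 9 to 33 counts in sgPrdm12, and their groups overlapped.

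Zscan20 joins zinc fingers to a SCAN domain, through which such proteins pair with each other. It lies on chromosome 4 at 128578670 to 128610153, far from the distal cluster of that chromosome. Its 2 regions, at 92.5% and 88.1% of the span, summed to 14 and 26 counts in sgNTC, with 163 and 82 in sgPrdm12. The level was 25.2 ± 8.60 CPM against 52.6 ± 3.32 CPM (SD, n = 2), a log2 fold change of 1.05 (SE 0.34). Here the sgNTC replicates differed more than the sgPrdm12 ones, with the lower value in replicate 1.

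Zfp2, on chromosome 11 at 50897265 to 50916216, had 4 regions, of which 3 lay between 75.2% and 85.2% of the span. Their sum was 26 and 44 counts against 204 and 150, or 44.3 ± 12.3 against 80.3 ± 16.4 CPM (SD, n = 2), with a log2 fold change of 0.84 (SE 0.28). The 3 far regions had log2 fold changes of 0.88, 0.79 and 0.97, so they differed little among themselves. The remaining region of Zfp2, at 29.3% of the span, held 4 and 6 against 12 and 21 counts and was not fitted.

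Zfp810, on chromosome 9 at 22276737 to 22307814, held the widest region of the set, 988 bp at 22278203 to 22279191. This region had 29 and 24 counts in sgNTC, and 29 is the highest sgNTC count of any of the 28 regions. In sgPrdm12 it had 183 and 89, with a log2 fold change of 0.76 (SE 0.36). A smaller region of Zfp810 lies closer to its end, and the unnamed gene Gm39308 is within 5 kb of both. The sum gave 48.1 ± 1.62 CPM against 84.0 ± 0.68 CPM (SD, n = 2), a log2 fold change of 0.80 (SE 0.27). The replicates of Zfp810 were close in both groups.

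Zfp951, on chromosome 5 at 104802246 to 104860157, had 2 regions at 83.4% and 80.8% of the span and a sparse one near its start. The 2 far regions held 8 and 14 against 76 and 44 counts, and 8 and 11 against 63 and 35. The one near the start held 1 and 2 against 27 and 4 counts, so its sgPrdm12 value came mainly from replicate 1. Over the gene the level was 27.9 ± 6.54 against 53.4 ± 3.60 CPM (SD, n = 2), a log2 fold change of 0.93 (SE 0.33).

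Zfp942, on chromosome 17 at 21926960 to 21962503, had no region within its span. Both of its regions lay past the end, by 1585 and 2541 bp, and within 5 kb of Gm6540, so they may belong to either. They summed to 17 and 20 counts against 134 and 75, or 23.7 ± 0.58 against 45.5 ± 0.56 CPM (SD, n = 2). The log2 fold change of Zfp942 was 0.94 (SE 0.36), with the farther region at 1.18 and the nearer at 0.48. At the nearer one the groups overlapped.

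Zfp949, on chromosome 9 at 88548020 to 88571086, had 4 regions between 84.0% and 97.1% of the span. Its sums were 12 and 42 counts in sgNTC, with 177 and 95 in sgPrdm12, or 33.5 ± 24.2 against 58.9 ± 1.03 CPM (SD, n = 2). The 2 sgNTC libraries thus differed more than the groups did. In sgNTC replicate 1, 2 of the 4 regions held 0 counts. The region closest to the end held 4 and 26 counts against 68 and 30, and its groups overlapped. The log2 fold change of Zfp949 was 0.79 (SE 0.31), but 0.21 without sgNTC replicate 1 and 1.79 without sgNTC replicate 2.

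Per the labels, the libraries numbered 1 form batch 1 and those numbered 2 form batch 2. Within batches all 10 genes were higher in sgPrdm12. This follows from both sgPrdm12 libraries lying above both sgNTC libraries, and so from the selection, and nothing is read from it. The log2 fold changes ran from 0.73 to 1.84 with a median of 1.04 in batch 1, and from 0.20 to 1.59 with a median of 0.88 in batch 2. In Zfp942, Zfp469, Zfp810, Zfp2, Zfp110 and Zfp780b the batches differed by less than the SE of the gene. Zfp850 was higher in batch 2 (1.59 against 0.73), whereas Zscan20 (1.503 against 0.68), Zfp951 (1.25 against 0.64) and Zfp949 (1.84 against 0.20) were higher in batch 1. Neighbours in the order of the 10 genes differed by less than their SE.

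**Figure D3:**
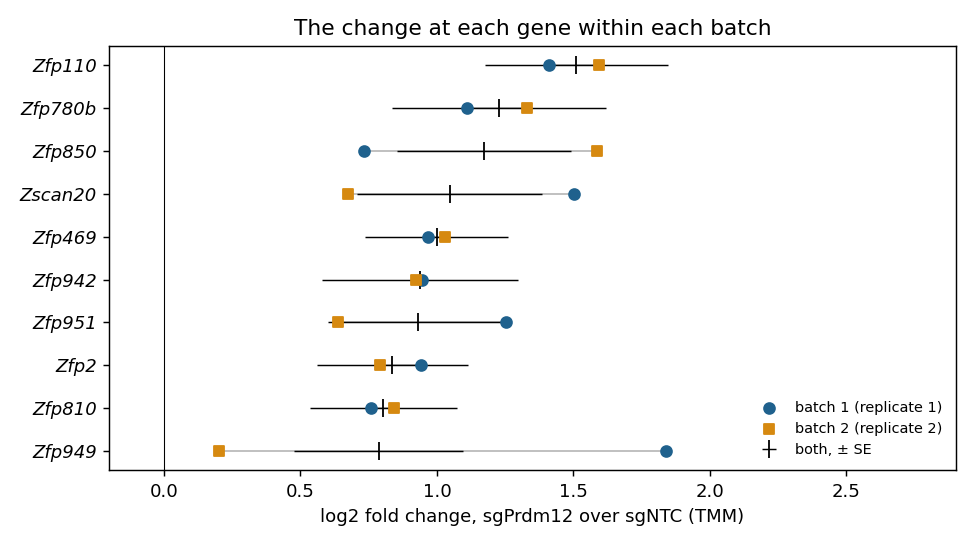
log2 fold change, sgPrdm12 over sgNTC, of each gene within batch 1 (circles) and batch 2 (squares), with the value over both batches and its SE (black). All points lie above 0 by the selection of the genes, and Zfp949 has the widest gap, from 0.20 to 1.84.

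The genes were selected on the counts in their regions, so the values of these regions reflect the selection. They are described here, and nothing is read from their contrast with all regions. Of the 28 regions, 25 passed the filter on low counts. Of these 25, 23 had a log2 fold change above 0 and 21 had both sgPrdm12 libraries above both sgNTC libraries, which was so for 20.2% of all regions tested. The median was 0.99, against -0.01 for all regions. In the fit over all regions 1 of them, the middle region of Zfp469, was called higher, as were 0.11% of all regions, and 0 were called lower, as were 0.377% of all regions. The 5 kb limit kept in the region shared by Zfp780b and Zfp850, 4129 bp from the former. Nearest beyond it was a region 9.28 kb from Zfp810, which held 9 and 0 counts in sgNTC, with 18 and 31 in sgPrdm12. A region 19.4 kb from Zfp951, at 104879548 to 104880231, held 12 and 9 counts against 141 and 81, more in sgPrdm12 than any region counted for that gene.

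The other zinc finger genes outside the clusters are set beside all genes here. Nothing is read from their place relative to the 10, which were selected to be high. Of 117 with a region, 101 were tested, and 2 were higher and 1 lower. Their median log2 fold change was 0.26, against -0.03 for all genes, and 42 of them (41.6%) had both sgPrdm12 libraries above both sgNTC libraries, against 22.2% of all genes. Both sgPrdm12 libraries were below both sgNTC libraries in 17. The 10 had been taken out of this list, and 18 of the 101 had a log2 fold change above that of Zfp949. Just below Zfp949 was Zfp160 at 0.76, with 15 and 23 counts against 119 and 69. For 34 tested zinc finger genes in the clusters, a list by symbol that leaves out those named Gm, 0 were higher and 0 lower, the median was 0.05, and 8 (23.5%) had both sgPrdm12 libraries above. With no adjustment, 3 of the 34 had an edgeR p under 0.05, as did 17 of the 101 outside clusters and 948 of all 7802 genes.

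**Figure D4:**
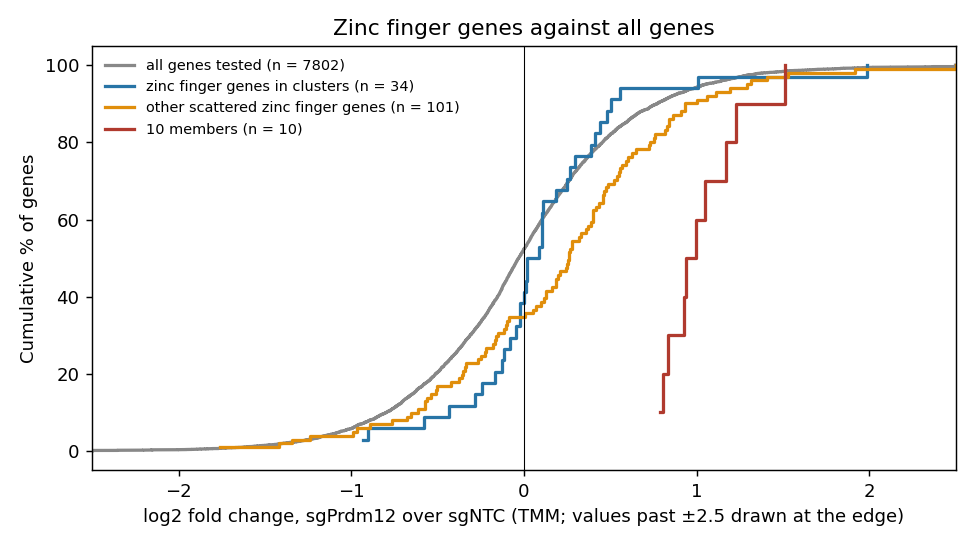
Cumulative share of genes, in %, by log2 fold change, sgPrdm12 over sgNTC, for all 7802 genes tested, 34 zinc finger genes in clusters, 101 other zinc finger genes outside clusters and the 10 genes described. The 10 lie between 0.79 and 1.51 by their selection, and the curve of the 101 lies to the right of that of all genes through the middle of the range.

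Among these 101, the 5 highest were Zbtb22, Zfp955a, Zfp251, Zfp867 and Zfp473. Zbtb22, a BTB zinc finger gene, had 0 and 0 counts in sgNTC, with 21 and 25 in sgPrdm12. Against a floor of 3 counts over the sgNTC group this was at least 5.20-fold higher (edgeR adjusted p = 0.0236). The 1 region of Zbtb22 is also counted for Daxx, which encodes a chaperone of histone H3.3, for Tapbp and for Gm19412. Zfp867 stood at 1.41 (SE 0.37) and passed the edgeR test with adjusted p = 0.00726, on a region that Jmjd4 shares. Zfp955a, Zfp251 and Zfp473 stood at 1.92 (SE 1.25), 1.53 (SE 0.82) and 1.32 (SE 0.59) and did not pass. Zfp473, whose human counterpart acts in the processing of histone mRNA, had 2 and 11 counts against 70 and 28. Zbtb22 did not pass when sgNTC replicate 1, sgNTC replicate 2 or sgPrdm12 replicate 1 was left out. Without sgPrdm12 replicate 2 it gave no value, so its call held in no fit with a library left out. With regions overlapping the span only, Zbtb22 gave no value either. Zfp867 did not pass without sgNTC replicate 1 or sgPrdm12 replicate 2, nor with DESeq2's Wald test.

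The 3 lowest were Zbtb20, Zfp821 and Zbtb8os. Zbtb20, which encodes a BTB zinc finger repressor, had 37 and 43 counts in sgNTC, with 61 and 13 in sgPrdm12, or 51.2 ± 0.82 against 14.3 ± 8.90 CPM (SD, n = 2). It fell by 1.76 on the log2 scale (SE 0.37, edgeR adjusted p = 0.000259), from 1 region that the gene 4932412D23Rik shares. Zbtb20 did not pass without sgPrdm12 replicate 2 or with the authors' constants, where it stood at -0.75. Zfp821 stood at -1.42 (SE 0.67). Zbtb8os, at -1.34 (SE 0.71), is in the list by its symbol only and shares its region with Rbbp4, which encodes a histone-binding protein.

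Among these 101 zinc finger genes, those with the most similar pattern over the 4 libraries, by the Euclidean distance of centred log2 CPM to the median of the 10, were Zfp27, Zfp445, Zfp160, Zfp286 and Zkscan7. Their distances ran from 0.18 to 0.40, within the range of 0.15 to 0.98 of the 10 themselves. These 5 were picked as the nearest, so their small distances and raised values follow from the pick, and nothing is read from them. Zfp27 had 8 and 10 counts in sgNTC, with 74 and 46 in sgPrdm12, a log2 fold change of 1.19 (SE 0.49). Zfp445, a KRAB zinc finger gene known for keeping imprints, had 20 and 22 against 138 and 82 counts and stood at 0.84 (SE 0.34). Zkscan7 shares a region with Zfp445 and stood at 1.06 (SE 0.49). None of these 5 passed the edgeR test, with adjusted p from 0.212 for Zfp445 to 0.362 for Zfp160.

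Within 500 kb of the 10 lie 44 other zinc finger genes, of which 16 had a region and 13 were tested, with 0 higher and 0 lower by the edgeR test. Their median log2 fold change was 0.36, from -1.24 at Zfp626 to 0.84 at Zfp33b, and 5 of the 13 had both sgPrdm12 libraries above both sgNTC libraries, against 22.2% of all genes, and 1 had both below, against 19.6%. The 10 were selected for a high value and their neighbours were not, so the 2 sets are not compared. Zfp626 lies within 500 kb of the pair Zfp780b and Zfp850, and its -1.24 (SE 0.64) rests on 1 region with 15 and 14 against 26 and 11 counts. It was not called, and the pair was selected to be high, so no contrast is read from their opposite signs. Beside Zfp810 is Zfp809, known for silencing murine leukaemia viruses, which stood at 0.39 (SE 0.56) with 12 and 8 counts against 48 and 29. The number of other zinc finger genes within 500 kb ran from 0 at Zfp949 to 16 at Zfp942. It was 9 at Zfp110 and 8 at each of Zfp780b and Zfp850, so some of the 10 lie among many such genes.

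Of 26 genes of the H3K9 methylation machinery and of partners of KRAB zinc finger proteins, 7 had a region and were tested. By the edgeR test 0 were higher and 0 lower, 1 had an unadjusted p under 0.05, as did 948 of all 7802 genes, and the median log2 fold change was 0.19. Setdb2, an H3K9 methyltransferase gene, stood at 0.99 (SE 0.83) with 4 and 5 against 34 and 19 counts. Cbx3, which encodes a heterochromatin protein 1, stood at 0.75 (SE 0.37) with 12 and 26 against 120 and 67 counts. Atf7ip, a partner of SETDB1, had the most regions of the list, 5, and stood at 0.09 (SE 0.30), with groups that overlapped. Morc2a and Zfp809 stood at 0.19 and 0.39, and Daxx and Ehmt2 at -0.14 and -0.54.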

How the data were processed

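H3K9me3 CUT&Tag regions of 2 sgNTC and 2 sgPrdm12 libraries were analysed; the IgG library was not analysed here. The table deposited by the authors gives a read count per region and library, as whole numbers that were not normalized. It also gives a normalized signal, which the authors deposited as the count times 1 constant per library (1.29, 1.09, 0.638 and 1.12 for sgNTC replicates 1 and 2 and sgPrdm12 replicates 1 and 2); the sources used here do not say how the constants were derived. Trimmomatic, Bowtie2, MACS2 and DiffBind are named, without versions, per the submitters' processing notes. The calling of regions is not described in these sources. If the deeper sgPrdm12 libraries weighed more in calling, regions high in them were favoured; this was not tested. The notes name GRCm39, but regions lay past the ends of GRCm39 chromosomes by recalled lengths, and 2 regions overlapped Rn18s-rs5 at its GRCm38 position, so coordinates were read as GRCm38. Whether starts count from 0 or 1 is unknown. Reads of near-identical zinc finger genes may have been split between copies.

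For each gene, the counts of the regions within 5 kb of its span were added, with spans from the RefSeq table for GRCm38, so neighbours can share a region. Genes (7802 tested, of which 93 were higher and 134 lower) and regions (37390, 41 and 141) were tested across all features by the quasi-likelihood test of edgeR 4.0.16 (with limma 3.58.1 in R 4.3.3; TMM factors on library totals, filterByExpr, no block, two-sided, Benjamini-Hochberg adjusted p under 0.05). The SE was taken from the log2 fold change and the quasi-F value (absolute change over root F). Values within batches used log2 CPM with a prior count of 0.5. DESeq2 1.42.0 was an alternative. Same-numbered libraries are paired by batch in the labels; their deviations correlated at 0.0134 over genes and 0.00419 over regions.

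Zinc finger genes were taken by symbol (Zfp, Zscan, Zkscan, Zik, Zim, Zbtb, Znf, Zfhx). Clusters were taken as all of chromosomes 12 and 13, chromosome 2 from 170 Mb and chromosome 4 from 140 Mb. Named were the 10 genes, the genes sharing their regions, the 5 highest and 3 lowest of the other zinc finger genes outside clusters, the 5 nearest in profile, and the machinery genes with a region. The 500 kb window and the position classes were chosen after the data were seen. The members and lists were chosen with earlier results of these data known.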

Additional observations from a re-analysis of the deposited data

How the results depend on the processing

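The 10 genes kept log2 fold changes above 0 in each alternative that gave a value. They were selected on higher H3K9me3 in sgPrdm12, so nothing is read from this sign. Their median was 0.97 on the TMM scale, 0.96 with DESeq2 size factors, 1.53 when scaled to total counts and 1.98 under the authors' constants, and relative to all genes it stayed between 0.85 and 1.13 over all alternatives. Zfp780b and Zfp942 gave no value with regions overlapping the span only. Counts of calls moved more. With total counts, 1180 genes were higher and 70 lower, and 936 regions were higher and 79 lower. With the authors' constants the numbers were 3474 and 32 genes, and 7765 and 52 regions. The other zinc finger genes outside clusters had 27 higher with total counts, and 63 higher and 0 lower with the authors' constants. DESeq2's Wald test gave 12 and 61 genes and 11 higher regions; of those zinc finger genes 0 were higher, with no adjusted p for Zbtb22. DESeq2 size factors gave 11 higher regions. Regions overlapping the span only gave 59 and 81 genes and 1 higher zinc finger gene. Without the 10 most covered regions, 19 regions were higher and 79 lower, and 1 of these zinc finger genes was higher, since Zbtb22 was no longer tested. Where not said, the cause was not tested. Leaving out 1 library gave 2 to 68 higher and 50 to 158 lower genes, 6 to 56 higher and 29 to 219 lower regions, and 0 to 1 of these zinc finger genes higher and 0 to 1 lower. The lowest number of higher genes, 2, and of higher regions, 6, came without sgPrdm12 replicate 2. With the replicate block, which pairs libraries by batch, 90 genes were higher and 137 lower, 45 regions were higher and 170 lower, and 2 and 1 of these zinc finger genes; it moved no count by over 1.5 times. With 7 and 9 counts in the median sgNTC region, depth limits what single regions can show.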

Other observations

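Among zinc finger genes outside clusters other than the 10, the regions in the final 20% of the span or past its end had a median log2 fold change of 0.40 over 51 tested pairs of a gene and a region, and those elsewhere 0.07 over 106. In other protein-coding genes the medians were 0.01 over 2230 pairs and -0.04 over 7001. In zinc finger genes of the clusters they were -0.03 over 26 and 0.01 over 58. With spans limited to 15.8 to 57.9 kb, the medians of the zinc finger genes outside clusters were 0.40 over 27 and 0.31 over 36 pairs, so the gap between the positions was smaller there. These values were not tested, and the position classes were chosen after the data were seen.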
